A study of Homo sapiens with 3 samples.

Results

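The mRNA levels of 10 growth factor receptor genes were compared between 2 libraries of the human melanoma line A375. The receptors were EGFR, ERBB2, ERBB3, AXL, MET, PDGFRB, FGFR1, IGF1R, KIT and NGFR, chosen by gene symbol as receptors discussed in resistance to vemurafenib, a BRAF inhibitor. All 10 were found among the 20344 genes listed. Values are FPKM, that is, reads or fragments scaled to gene length and to the library total. A total of 9 receptors had at least 1 FPKM in at least 1 library, the filter used throughout. KIT was listed at 0 in both.

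The sample titled A375-VR, Prop is called the A375-VR library here, and the sample titled A375, Prop, against which it was set, the A375 library. The other sample of the series, A375-VR cells in DMSO by its title, was not used. A375 is an established melanoma line with mutant BRAF, and propranolol is a blocker of beta-adrenergic receptors. Both titles carry Prop, read here as propranolol, which the extraction protocol gives as 20 µM for 24 h, so neither library is from untreated cells and the comparison is between cell lines under the same drug. That protocol names A375-VR cells for every sample, but the A375 library is titled and labelled as A375, which was followed here. The cell line label of the DMSO sample is A375, against its title. VR was read as vemurafenib-resistant, after the series title. The labels do not say how A375-VR was derived, whether it is 1 clone, or whether vemurafenib was in the medium. Each library stands alone in its group, so there is no replicate check and no p-value. All intervals below are 95% intervals on read numbers worked out from the FPKM, and they cover counting error only. They compare 2 libraries and not 2 conditions. The read numbers are the smallest that fit the values, so true numbers can be whole multiples, in which case the true counting intervals are narrower than those printed. This bears on ERBB3, AXL and FGFR1, whose fitted lengths were well under their GENCODE exon lengths.

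A receptor tyrosine kinase carries a ligand-binding part outside the cell and a kinase inside it. Ligand brings receptors together, the kinases phosphorylate tyrosines on each other, and adaptor proteins that bind these tyrosines start the RAS to ERK and PI3K to AKT cascades. In BRAF-mutant melanoma such receptors are known as a way to feed these cascades when BRAF is inhibited. High AXL, EGFR, PDGFRB and NGFR are known as marks of dedifferentiated melanoma states, while ERBB3 and KIT are linked to the melanocyte lineage. NGFR is no tyrosine kinase. It is a neurotrophin receptor of the tumour necrosis factor receptor family, with a death domain inside the cell.

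The receptors also differ in whether they can catalyse. The 4 coding stretches printed here, from GENCODE transcripts on GRCh37, run 5′ to 3′ from the catalytic loop to the DFG motif that binds magnesium. They are shown for ERBB3, its usual partner ERBB2, and the other abundant receptors MET and AXL. The first capitals mark the codon of the catalytic base and the last capitals the DFG codons. ERBB3 holds an asparagine codon, AAC, where the others hold the aspartate codon GAC. This is the known hallmark of ERBB3 as a weak kinase that signals through its partners.
ERBB3: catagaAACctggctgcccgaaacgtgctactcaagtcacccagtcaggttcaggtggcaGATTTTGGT
ERBB2: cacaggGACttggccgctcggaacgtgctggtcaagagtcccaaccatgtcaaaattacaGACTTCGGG
MET: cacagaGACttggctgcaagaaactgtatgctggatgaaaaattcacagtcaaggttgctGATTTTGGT
AXL: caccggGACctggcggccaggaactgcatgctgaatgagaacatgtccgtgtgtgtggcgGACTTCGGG
The ERBB3 stretch lies in 1 exon on the plus strand at chr12:56491602-56491670, and the ERBB2 stretch at chr17:37881335-37881403, also plus. The MET stretch at chr7:116422123-116423397 and the AXL stretch at chr19:41759585-41762396, both plus, are interrupted by an intron.

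Of the receptors, only ERBB3, AXL and NGFR changed rank between the libraries, and the summed level stayed close in the FPKM as given. The 10 receptors added up to 128 FPKM in the A375-VR library and 130 FPKM in the A375 library. Centring on the median ratio of all genes, or on a trimmed mean of log ratios, would lower the A375-VR sum. These rescalings shift all its values down by 0.11 and 0.15 on the log2 scale. In the A375-VR library the order of levels from the highest was ERBB3, MET, AXL, NGFR, IGF1R, ERBB2, FGFR1, EGFR and PDGFRB. In the A375 library it was AXL, MET, NGFR, ERBB3, IGF1R, ERBB2, FGFR1, EGFR and PDGFRB. ERBB3 thus headed the order in the A375-VR library and AXL in the A375 library, with MET next in both. Within each library, the counting intervals of neighbours in this order did not overlap, except those of IGF1R and ERBB2 in the A375 library. These intervals leave out the gene lengths used in counting, which are not known. Every order, share or ratio between genes, here and below, rests on those lengths and could differ under others.

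**Figure D1:**
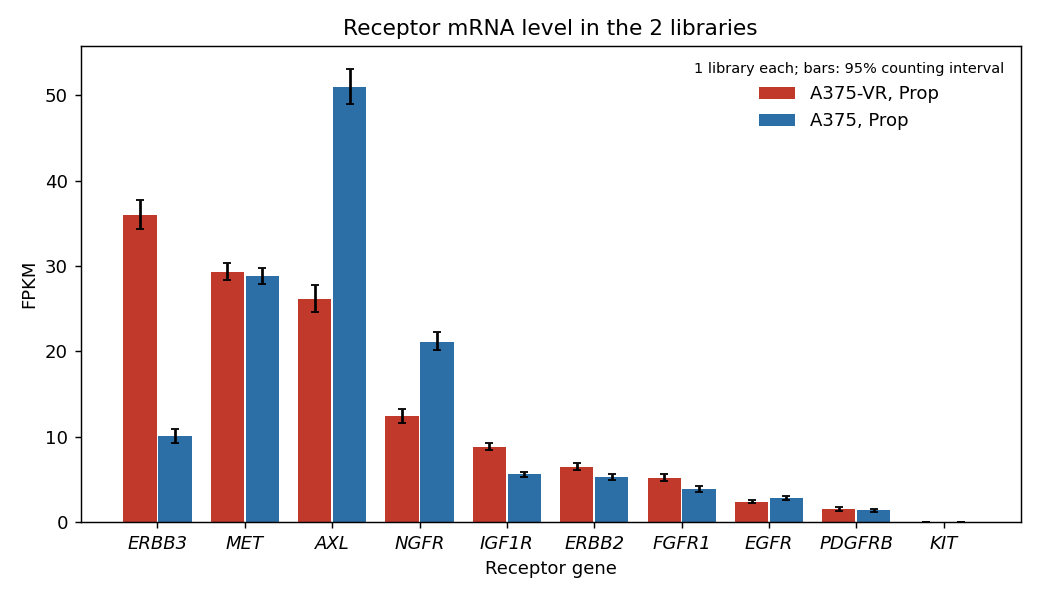
Level of each receptor in FPKM in the A375-VR library (red) and the A375 library (blue), 1 library each, with 95% exact Poisson intervals that cover counting error only. ERBB3 stood at 36.0 FPKM in the A375-VR library and 10.1 FPKM in the A375 library, and AXL at 26.2 FPKM in the A375-VR library and 51.0 FPKM in the A375 library.

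The make-up of the receptor mRNA differed accordingly. ERBB3 gave 28.0% of the summed FPKM of the 10 receptors in the A375-VR library, against 7.74% in the A375 library. AXL gave 20.4% in the A375-VR library and 39.2% in the A375 library. AXL and NGFR together made up 30.1% in the A375-VR library and 55.5% in the A375 library. The share of MET was close in both, at 22.8% in the A375-VR library and 22.1% in the A375 library. The ratio of ERBB3 to AXL was 1.37 in the A375-VR library and 0.197 in the A375 library.

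**Figure D2:**
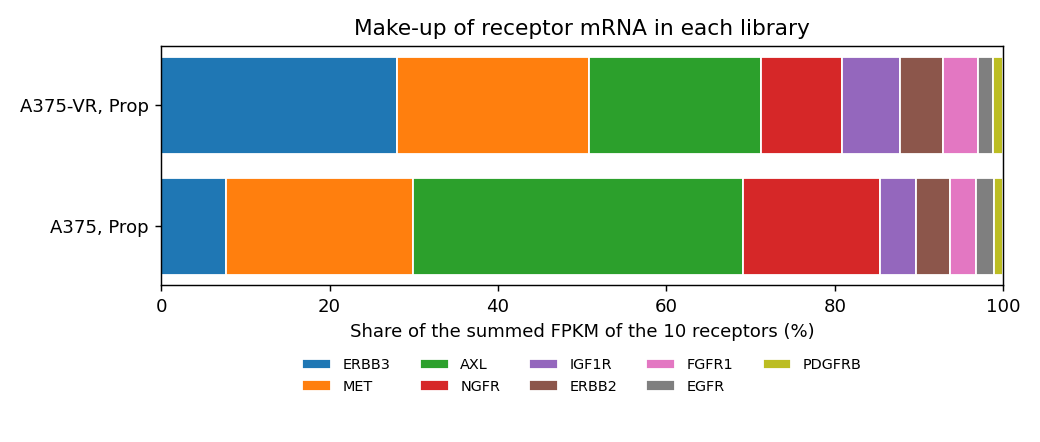
Share of each receptor in the summed FPKM of the 10 receptors, in percent, for the A375-VR library (upper bar) and the A375 library (lower bar). ERBB3 takes 28.0% of the upper bar and 7.74% of the lower bar, and AXL takes 20.4% of the upper bar and 39.2% of the lower bar.

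A gene was called 2-fold apart when its log2(FPKM + 1) differed by at least 1, a scale that understates the change of low genes. Over the 10761 genes past the filter, the A375-VR library was higher by this rule for 338, or 3.14%, and lower for 66, or 0.613%. Of these calls 83.7% were upward, 73.0% after centring on the median ratio of all genes (273 higher, 101 lower) and 68.1% with a trimmed mean of log ratios (248 higher, 116 lower). By this rule 1 of the 9 receptors past the filter was higher, ERBB3, and none was lower. The median difference of the receptors was 0.07, beside 0.10 over all genes. It was -0.02 with the trimmed mean, which moved the median of all genes to -0.03, and 0.26 with a filter at 5 FPKM, beside 0.05 over all genes. Against a ratio of 1, the counting interval lay above for ERBB3, IGF1R, FGFR1 and ERBB2, below for AXL, NGFR and EGFR, and held 1 for MET and PDGFRB. Against the median ratio of all genes, 1.08, or the trimmed mean, 1.11, the MET interval lay below as well.

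**Figure D3:**
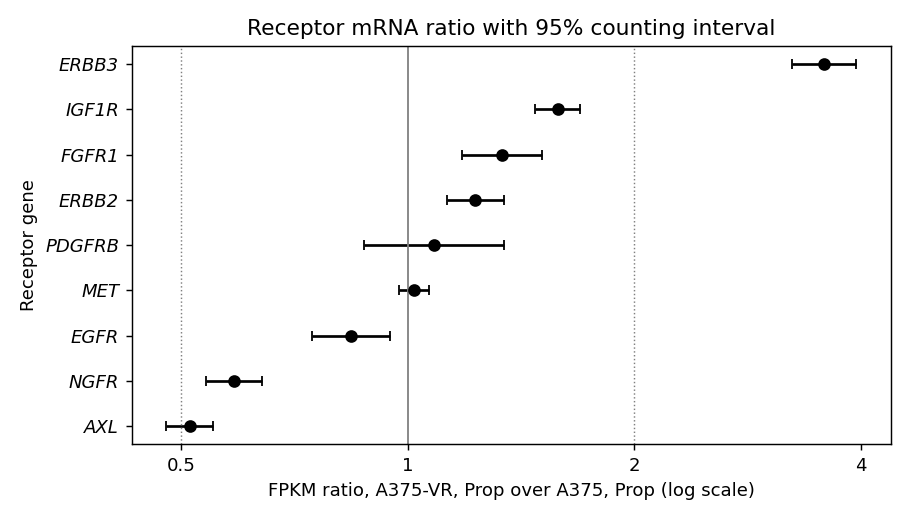
Ratio of FPKM in the A375-VR library over the A375 library for the 9 receptors past the filter, on a log axis, with 95% exact Clopper-Pearson counting intervals. Dotted lines mark ratios of 0.5 and 2. ERBB3 alone lies beyond 2, and the AXL interval of 0.477 to 0.552 spans 0.5.

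The ERBB receptors differed unequally between the libraries. ERBB3 (Entrez 2065, chromosome 12 at 56470583 to 56497289, plus strand, GRCh37) had 36.0 FPKM in the A375-VR library (34.3 to 37.7, from 1782 reads). It had 10.1 FPKM in the A375 library (9.23 to 10.9, from 540 reads), a fold of 3.58 (3.25 to 3.94). Its difference of 1.74 ranked 66th from the top among the 10761 genes past the filter, and was at least 1.60 under every alternative tried. ERBB2, the partner without a known ligand of its own, had 6.52 FPKM in the A375-VR library and 5.30 FPKM in the A375 library, a fold of 1.23 (1.13 to 1.34). Its exons share 571 bases with MIEN1 and 144 bases with PGAP3 on the opposite strand, and whether the counting used strand is not given in the sources used here. EGFR had 2.41 FPKM in the A375-VR library and 2.87 FPKM in the A375 library, a fold of 0.841 (0.747 to 0.948). ERBB3 thus made up 80.1% of the summed ERBB level in the A375-VR library and 55.2% in the A375 library, and the ratio of ERBB3 to ERBB2 was 5.51 in the A375-VR library against 1.90 in the A375 library.

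AXL was the receptor with the largest decrease. AXL (Entrez 558, chromosome 19 at 41725128 to 41767671, plus strand), the receptor for GAS6, had 26.2 FPKM in the A375-VR library (24.7 to 27.8, from 1109 reads). It had 51.0 FPKM in the A375 library (49.0 to 53.1, from 2341 reads), a fold of 0.513 (0.477 to 0.552). Only 0.827% of genes past the filter had a lower difference. The difference of -0.94 was just short of the 2-fold call, and passed it after centring on the median ratio (-1.05) and with the trimmed mean (-1.08). MET (chromosome 7 at 116312250 to 116438431, plus strand), the receptor for hepatocyte growth factor, had 29.3 FPKM in the A375-VR library and 28.8 FPKM in the A375 library. Its fold of 1.02 (0.973 to 1.07) rested on 3396 reads in the A375-VR library and 3608 in the A375 library. The difference of MET was 0.03, and turned to -0.08 after centring and -0.12 with the trimmed mean.

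NGFR was lower as well. NGFR (Entrez 4804, chromosome 17 at 47572655 to 47592370, plus strand) had 12.4 FPKM in the A375-VR library (11.6 to 13.3, from 848 reads). It had 21.1 FPKM in the A375 library (20.1 to 22.2, from 1563 reads), a fold of 0.588 (0.540 to 0.640). A lower difference than its -0.72 was found for 2.06% of genes. It stayed under 2-fold in every alternative, the lowest difference being -0.86. The opposite-strand gene NGFR-AS1 shares 202 exon bases with it. On the opposite strand too, EGFR shares 186 exon bases with EGFR-AS1 and FGFR1 shares 138 with LETM2. Ensembl genes without a name share 924 bases with NGFR, 387 with FGFR1 and 67 with AXL, also on the opposite strand. Another shares 31 bases with ERBB3 on the same strand, which stranded counting would not separate.

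The remaining kinases were less abundant than ERBB3, MET, AXL and NGFR in both libraries. IGF1R, the receptor for insulin-like growth factors, had 8.86 FPKM in the A375-VR library and 5.60 FPKM in the A375 library, a fold of 1.58 (1.48 to 1.70). After ERBB3 this was the largest increase among the receptors, and 88.2% of genes had a lower difference. FGFR1, a fibroblast growth factor receptor, had 5.23 FPKM in the A375-VR library and 3.92 FPKM in the A375 library, a fold of 1.33 (1.18 to 1.51). PDGFRB, a receptor for platelet-derived growth factors, had 1.50 FPKM in the A375-VR library and 1.38 FPKM in the A375 library. It rested on 176 reads in each, and the interval of its fold of 1.08, 0.874 to 1.34, left no detectable difference at this depth. KIT, the receptor for stem cell factor and a survival receptor of melanocytes, was listed at 0 in both. With 3 counts as the limit that a 0 allows and the GENCODE exon length of 11327 bases, levels up to 0.0161 FPKM in the A375-VR library and 0.0149 FPKM in the A375 library would have been missed. That length is an assumption, since the length the counting used is not known, and a shorter one would raise the limit.

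The ligands of these receptors were mostly scarce, with TGFA as the exception. Of 31 ligand genes, 12 passed the filter. In the A375-VR library 1 of them was 2-fold higher and none 2-fold lower, beside 3.14% and 0.613% of all genes. Their median difference was -0.03, beside 0.10 over all genes, or -0.11 after centring and -0.13 with the trimmed mean. TGFA, an EGFR ligand, had 88.3 FPKM in the A375-VR library (7207 reads) and 29.7 FPKM in the A375 library (2625 reads), a fold of 2.97 (2.84 to 3.11). In both libraries it exceeded its receptor EGFR, which was under 3 FPKM. So did HBEGF, another EGFR ligand, which was lower in the A375-VR library. HBEGF had 3.79 FPKM in the A375-VR library and 5.21 FPKM in the A375 library, a fold of 0.728 (0.554 to 0.952). The neuregulins, ligands of ERBB3, went in opposite directions. NRG1 had 0.822 FPKM in the A375-VR library and 2.04 FPKM in the A375 library, a fold of 0.402 (0.332 to 0.486). NRG2 had 2.89 FPKM in the A375-VR library and 1.54 FPKM in the A375 library, a fold of 1.88 (1.50 to 2.36). The higher ERBB3 mRNA of the A375-VR library thus stood beside less NRG1 and more NRG2 mRNA. PROS1, which activates the AXL relatives TYRO3 and MERTK, had 4.95 FPKM in the A375-VR library and 2.76 FPKM in the A375 library. GAS6, the AXL ligand, had 2.13 FPKM in the A375-VR library and 1.68 FPKM in the A375 library, a fold of 1.26 whose interval, 0.754 to 2.13 on the smallest read numbers, held 1. HGF, the ligand of MET, and IGF1, a ligand of IGF1R, were listed at 0 in both libraries. KITLG, the ligand of KIT, had 0.706 FPKM in the A375-VR library and 1.45 FPKM in the A375 library, and BDNF, a neurotrophin that NGFR binds, had 1.04 FPKM in the A375-VR library and 1.95 FPKM in the A375 library. The ligands HBEGF, GAS6, HGF, IGF1, KITLG and BDNF were named after their values were seen.

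**Figure D4:**
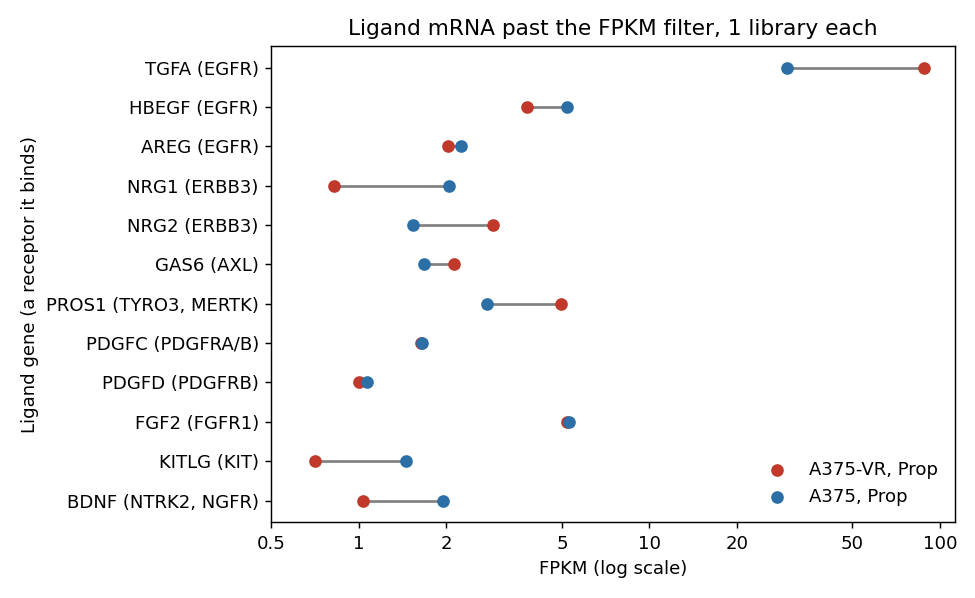
FPKM on a log axis of the 12 ligand genes past the filter in the A375-VR library (red) and the A375 library (blue), each with a receptor it binds. TGFA stands at 88.3 FPKM in the A375-VR library and 29.7 FPKM in the A375 library, and the neuregulins NRG1 and NRG2 lie apart in opposite directions.

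Genes that hold or release ligand at the cell surface mostly had differences above 0, as did 60.3% of all genes past the filter. Of 20 co-receptors and binding proteins past the filter, 16 were above 0, 3 were 2-fold higher and none lower. Over all genes 3.14% were 2-fold higher and 0.613% lower. The median difference of the list was 0.45, beside 0.10 over all genes. It was 0.35 after centring and 0.32 with the trimmed mean. IGFBP5, which binds insulin-like growth factors, had 6.87 FPKM in the A375-VR library and 0.837 FPKM in the A375 library, a fold of 8.21 (6.62 to 10.3). NRP2, a neuropilin co-receptor, had a fold of 4.17 (3.87 to 4.50), and the heparan sulfate carrier SDC3 one of 3.06 (2.69 to 3.49). IGFBP7 had 40.9 FPKM in the A375-VR library and 20.4 FPKM in the A375 library. The list as a whole summed to 549 FPKM in the A375-VR library and 547 FPKM in the A375 library. Its lower members included IGFBP4, with 142 FPKM in the A375-VR library and 218 FPKM in the A375 library, a fold of 0.649 (0.627 to 0.672), and the syndecan SDC1, with a fold of 0.686 (0.646 to 0.728), both named after their values were seen. Of 10 sheddases and partners past the filter, 9 were above 0, 1 was 2-fold higher and none lower, beside the same shares of all genes. Their median was 0.51, or 0.43 after centring and 0.41 with the trimmed mean. Sheddases cut membrane-bound ligands and receptors free. ADAM19 had 7.12 FPKM in the A375-VR library and 2.18 FPKM in the A375 library, and RHBDF1, an inactive rhomboid that serves the sheddase ADAM17, had 16.5 FPKM in the A375-VR library and 7.99 FPKM in the A375 library. The inhibitors TIMP3, with 163 FPKM in the A375-VR library and 98.0 FPKM in the A375 library, and TIMP1, with 124 FPKM in the A375-VR library and 77.6 FPKM in the A375 library, had folds of 1.67 and 1.59.

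Inside the cell the common adaptors differed little. Of 23 adaptors and first signal proteins past the filter, 15 were above 0, 1 was 2-fold higher and none lower. The shares over all genes were 60.3%, 3.14% and 0.613%. The median difference of the adaptors was 0.06, beside 0.10 over all genes. It turned to -0.05 after centring and -0.08 with the trimmed mean. The 4 with the largest difference were SHC4, IRS2, SOS2 and PIK3R3. SHC4, an adaptor of the SHC family, had 3.22 FPKM in the A375-VR library and 0.889 FPKM in the A375 library, a fold of 3.62 (2.42 to 5.56). IRS2, the docking protein of IGF1R, had 28.6 FPKM in the A375-VR library and 14.5 FPKM in the A375 library, a fold of 1.97 (1.86 to 2.08). SOS2, an exchange factor for RAS, and PIK3R3, a regulatory subunit of PI3K, had folds of 1.88 and 1.90.

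Genes listed as receptor attenuators mostly had differences above 0, and whether each dampens a receptor in these cells was not tested. Of 21 past the filter, 17 were above 0, 1 was 2-fold higher and none lower, beside 60.3% of all genes above 0 and 3.14% higher. Their median of 0.19, beside 0.10 over all genes, was 0.12 after centring and 0.08 with the trimmed mean. LRIG3, a relative of the ERBB brake LRIG1, had 12.5 FPKM in the A375-VR library and 4.36 FPKM in the A375 library, a fold of 2.87 (2.57 to 3.20). ERRFI1, which binds and inhibits the EGFR kinase, had 71.5 FPKM in the A375-VR library and 39.6 FPKM in the A375 library, a fold of 1.81 (1.73 to 1.89). The receptor phosphatase PTPRJ had a fold of 1.99 (1.78 to 2.22). SOCS3, a suppressor of cytokine signalling, had 4.90 FPKM in the A375-VR library and 9.14 FPKM in the A375 library. Of the NGFR partners, 10 passed the filter, 8 were above 0 and 1 was 2-fold higher, none lower, beside the same shares of all genes. Their median of 0.18 was 0.08 after centring and 0.04 with the trimmed mean. MAGED1, which binds the NGFR tail, had 32.3 FPKM in the A375-VR library and 15.3 FPKM in the A375 library, a fold of 2.11 (1.98 to 2.24). NCSTN, a membrane glycoprotein, had a fold of 1.40, and TRAF6, a signal adaptor, one of 1.38.

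Transcription factors tied to receptor genes went both ways. Of 31 past the filter, 22 were above 0, 4 were 2-fold higher and 2 were 2-fold lower, beside 60.3%, 3.14% and 0.613% of all genes. Their median of 0.29 was 0.18 after centring and 0.15 with the trimmed mean. The 4 that were higher were SOX10, FOXD3, FOXO1 and FOXO4. SOX10, FOXD3 and factors of the FOXO family are known to act on the ERBB3 gene, and no binding was measured here. SOX10 had 150 FPKM in the A375-VR library and 65.3 FPKM in the A375 library, a fold of 2.29 (2.21 to 2.38). FOXD3, a neural crest factor, had 2.62 FPKM in the A375-VR library and 0.431 FPKM in the A375 library, a fold of 6.09 (2.84 to 15.0) from 45 reads in the A375-VR library and 8 in the A375 library. FOXO1 had 3.24 FPKM in the A375-VR library and 0.892 FPKM in the A375 library, and FOXO4 had 3.64 FPKM in the A375-VR library and 0.717 FPKM in the A375 library. The 2 that were lower, JUN and TEAD4, were named after their values were seen. JUN, a subunit of AP-1, had 5.74 FPKM in the A375-VR library and 12.9 FPKM in the A375 library, and TEAD4, the DNA-binding partner of YAP, had 19.1 FPKM in the A375-VR library and 40.2 FPKM in the A375 library. MITF, the melanocyte factor, also named after its values were seen, had 3.47 FPKM in the A375-VR library and 6.47 FPKM in the A375 library.

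**Figure D5:**
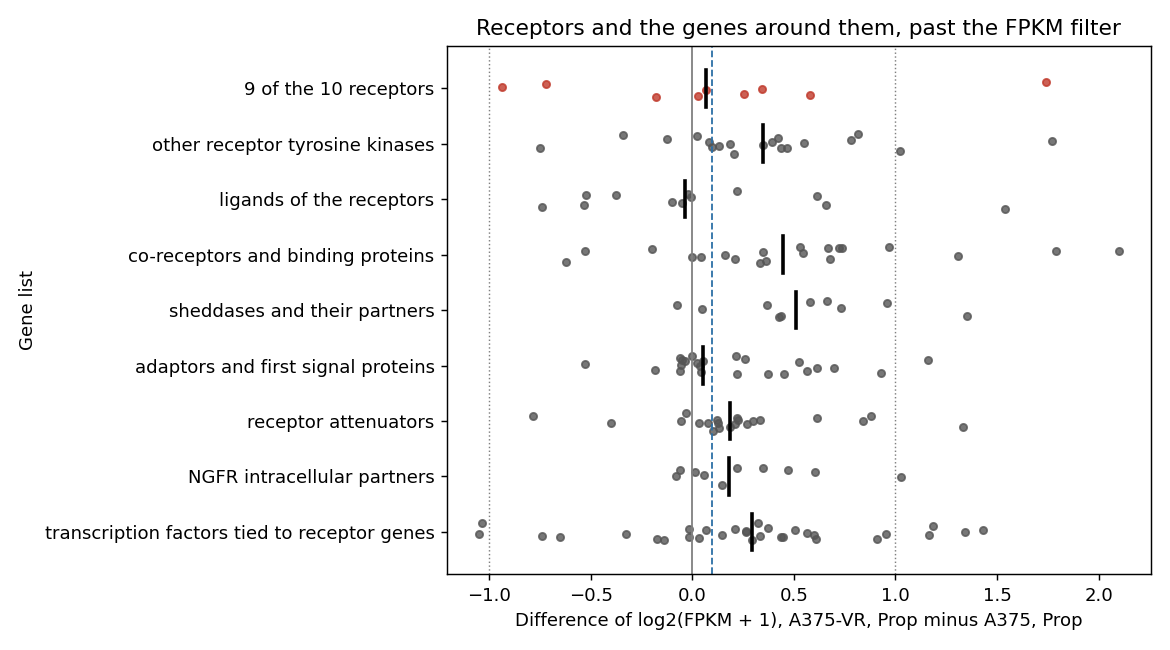
Difference of log2(FPKM + 1), A375-VR library minus A375 library, of each gene past the filter, by gene list, with the list's median as a black bar. The dashed blue line is the median of all genes, 0.10, and dotted lines mark 2-fold. The receptors spread from -0.94 for AXL to 1.74 for ERBB3 around a median of 0.07.

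Promoter windows from RefSeq on GRCh38.p14, from 250 bases before to 50 bases after a start, were matched for 7 of the 10 receptors, with 9 windows in all. ERBB3, FGFR1 and NGFR were not matched. Searched on both strands were ACAAAG and ACAATG as SOX motifs, CACGTG and CATGTG as E-boxes, TGACTCA for AP-1 and GGAATG for TEAD. Of all 35116 windows, 14.0% held GGAATG, 4.95% TGACTCA, 11.1% CATGTG, 7.26% CACGTG, 16.1% ACAAAG and 10.8% ACAATG. AXL, the receptor that decreased most, had 2 windows, and only the downstream one held matches. It is printed here with the matches in capitals, 1 for the TEAD motif, 1 for the SOX motif ACAAAG and 1 for the E-box CATGTG, all read on the opposite strand.
AXL, chr19:41226505-41226804, plus strand: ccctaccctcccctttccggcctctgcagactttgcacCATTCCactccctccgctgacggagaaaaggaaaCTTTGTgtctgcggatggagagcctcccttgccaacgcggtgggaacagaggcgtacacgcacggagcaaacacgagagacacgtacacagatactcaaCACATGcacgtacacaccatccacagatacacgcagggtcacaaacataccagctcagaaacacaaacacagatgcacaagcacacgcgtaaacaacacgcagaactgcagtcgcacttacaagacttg
Among the other receptors, MET had a match to CACGTG, and EGFR had matches to the AP-1 motif, the TEAD motif and the E-box CATGTG. The windows of ERBB2, PDGFRB, IGF1R and KIT held none of these letters. A match is a description of the sequence and not a bound site.

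The cells were checked against marker genes. Of 11 melanocyte and melanoma markers, 5 passed the filter, SOX10, CSPG4, MCAM, S100B and MITF, and the list summed to 252 FPKM in the A375-VR library and 141 FPKM in the A375 library. The pigment genes TYR, TYRP1, MLANA, DCT and PMEL were all under 1 FPKM, and TYR was listed at 0 in both. Of 8 leukocyte markers none passed and 6 were at 0 in both libraries, with sums of 1.61 FPKM in the A375-VR library and 0.0595 FPKM in the A375 library. Fibroblast markers summed to 5.59 FPKM in the A375-VR library and 3.51 FPKM in the A375 library, nearly all from LUM. Endothelial markers summed to 2.17 FPKM in the A375-VR library and 0.755 FPKM in the A375 library, mostly from KDR, itself a receptor tyrosine kinase. Among 7 keratinocyte and epithelial markers KRT10 was the highest, at 56.0 FPKM in the A375-VR library and 44.9 FPKM in the A375 library, and KRT1, CDH1 and TP63 were listed at 0 in both. Schwann cell markers, which include NGFR, had 5 of 6 past the filter, and S100B was at 12.6 FPKM in the A375-VR library and 3.72 FPKM in the A375 library while PMP2 was at 0 in both. Their part in the receptor differences was not tested.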

How the data were processed

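RNA of 2 libraries was used, 1 per group. A stranded TruSeq kit for mRNA, paired reads of 150 bp and alignment to GRCh37 with TopHat 1.3.3 are named in the series design text. For counting, the tool and annotation are not stated. The authors deposited FPKM per gene, zeros kept. From these, log2(FPKM + 1) was compared between libraries, for genes that reached 1 FPKM in either library. Library totals were worked out from common divisors of the values, as 16438482 for the A375-VR library and 17811339 for the A375 library. Under these totals 14.8% of 1500 sampled genes had exactly the GENCODE 44 exon length, more than under 5 other choices. The margin was narrow, since the next best choice gave 13.0%. Reads are the smallest whole numbers that fit, within a relative tolerance of 1e-06, so true counts can be multiples. Fold intervals are exact Clopper-Pearson and level intervals exact Poisson. No count model or test was run, and with 2 libraries no likeness of pattern between genes was computed. The difference, call and interval steps were run on simulated data that held counting error only. The recovery of totals and reads from FPKM was not tested in this way. Named genes were all receptors, the 4 largest differences of each other list, and the highest marker of each cell type; 1 gene that this rule names is not reported here. The receptors and lists were chosen with earlier results of these data known. A few list entries are older names of genes also listed under a current name. Pseudocount, filter and scaling were varied. Python 3.11.15, numpy 2.4.6, pandas 2.3.3 and scipy 1.17.1 were used.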

Additional observations from a re-analysis of the deposited data

How the results depend on the processing

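A total of 52 receptor values were recomputed under another pseudocount, filter or scaling. Of these, 43 moved by less than the distance from the middle to the end of the log2 counting interval. They include all values under another filter, which cannot change the difference of a single gene, so those are no check. Signs changed for 3, MET with both centred scalings and PDGFRB with the trimmed mean (-0.02). ERBB3 was the 1 receptor called higher in every alternative. The count of receptors called lower was 1, AXL, after centring and with the trimmed mean, since both shift all genes down, by 0.11 and 0.15 on the log2 scale. Counts over all genes were 689 higher and 140 lower with a pseudocount of 0.1, 624 higher and 104 lower with a common sum, 101 lower after centring and 116 lower with the trimmed mean. A smaller pseudocount enlarges log2 differences by arithmetic. The common sum raised the values of both libraries while the pseudocount stayed at 1, so it acted as a smaller pseudocount as well. Before it, the FPKM of all genes summed to 260897 in the A375-VR library and 265149 in the A375 library. Its counts are therefore no check of scaling alone, and how much each part gave was not tested. No paired analysis was possible because each group has 1 library, and no replicate could be left out. Depth limits receptors with few reads, such as PDGFRB. FPKM shares its scaling over all genes.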

Other observations

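Outside the 10 receptors, the receptor tyrosine kinase family held 49 other genes, of which 19 passed the filter. Of these 16 were above 0, 2 were 2-fold higher and 0 lower, beside 60.3%, 3.14% and 0.613% of all genes. Their median difference was 0.35, beside 0.10 over all genes and 0.07 for the 9 receptors past the filter. With no filter the medians were 0.06 for the 49 and 0.05 for the 10 receptors, beside 0.0 over all genes. With the trimmed mean the median of the 19 was 0.22, beside -0.03 over all genes. The 49 summed to 172 FPKM in the A375-VR library and 189 FPKM in the A375 library. EPHA2, named after its values were seen, was the most abundant of them, with 65.8 FPKM in the A375-VR library and 111 FPKM in the A375 library, a fold of 0.592 (0.571 to 0.614). Its relative EPHA3 had 13.4 FPKM in the A375-VR library and 3.21 FPKM in the A375 library, a fold of 4.16 (3.72 to 4.67). KDR, a receptor for vascular endothelial growth factor, had 1.84 FPKM in the A375-VR library and 0.394 FPKM in the A375 library, a fold of 4.66 (3.37 to 6.58) from 198 reads in the A375-VR library and 46 in the A375 library. EPHB2 and EPHA4 had folds of 2.44 (2.10 to 2.85) and 2.15 (1.70 to 2.72). Of the AXL relatives, named after their values were seen, TYRO3 had 3.47 FPKM in the A375-VR library and 3.87 FPKM in the A375 library, a fold of 0.897 whose interval, 0.702 to 1.14 on the smallest read numbers, held 1. MERTK had 0.285 FPKM in the A375-VR library and 0.215 FPKM in the A375 library. ERBB4, the remaining ERBB receptor, was listed at 0 in the A375-VR library and rested on 2 reads in the A375 library.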
